A study of Mus musculus with 16 samples.

Results

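Intermediate filament genes were examined in tibialis anterior muscles, a muscle of the lower hindlimb, from UBR4 mKO mice and wild-type (WT) controls. The list held 10 of the 47643 genes in the deposited table: the keratin genes Krt8, Krt18, Krt19 and Krt80, the filament genes of muscle and mesenchymal cells Des, Vim, Nes, Synm and Sync, and Plec, which encodes the cross-linker plectin. Krt8 and Krt18 had been chosen by their large rises in these same samples, so their values are given as a description with no test, and the other 8 genes are further members of the family and a linker.

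RNA had been sequenced from 16 muscles. The labels list 4 samples in each of the 4 groups, young (6 months) and old (24 months) animals of either genotype. The study's text names fewer replicates per group for these RNA data than the labels do, and all 16 samples were used. All mice were C57BL6/J, labelled male, homozygous for floxed Ubr4 alleles (UBR4fl/fl) and injected with tamoxifen, by the study's methods at the same age and before 6 months. UBR4 mKO mice carried in addition a tamoxifen-inducible Cre driven by the ACTA1 promoter, whereas WT controls had the floxed alleles without Cre. UBR4 is a ubiquitin ligase, and Cre from this promoter acts in skeletal muscle fibers, while the whole muscle also holds vessels, fibroblasts, nerve and immune cells in which the gene is kept. In RNA from whole muscle, fewer cells of a type and less RNA per cell cannot be told apart. Values are TPM, a length-corrected level of each transcript that sums to the same total in each sample, so the number of reads behind a value is unknown.

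Intermediate filaments are rope-like polymers that give cells mechanical strength. In adult muscle fibers desmin (Des) surrounds the Z-discs and ties them to the membrane, where synemin (Synm), syncoilin (Sync) and plectin (Plec) connect it to the dystrophin complex and the costameres, the attachment sites along the fiber surface. Keratins are built from a type I and a type II chain that polymerize only together. Krt8 (type II) and Krt18 (type I) form this pair in simple epithelia such as those of liver and gut.

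The libraries were first compared with their labels. Ubr4 was 9.09 to 15.7 TPM in 6-month WT and 4.91 to 6.54 TPM in 6-month UBR4 mKO muscles, and at 24 months it was 17.0 TPM or more in every WT sample and between 4.28 and 14.6 TPM in UBR4 mKO. Although all mice were labelled male, Xist, the RNA of the inactive X chromosome of females, was between 0.711 and 23.8 TPM in all 6-month libraries and at most 0.0252 TPM in the 24-month libraries. The Y-linked gene Ddx3y was 2.29 to 13.4 TPM in 6-month WT muscles, and it was 0.0730 TPM in replicate 4 of the 6-month UBR4 mKO group against 13.2 to 22.6 TPM in the other replicates of that group. Pooled or exchanged tissue cannot be told from the files, so it is unknown whether each 6-month library came from 1 mouse of the labelled sex. Age and this difference between the libraries cannot be told apart in the comparisons of 24 with 6 months. The genotypes also differed in it at 6 months. The Y-linked gene Eif2s3y was 1.69 to 9.88 TPM in WT and 18.4, 14.5 and 17.6 TPM in UBR4 mKO replicates 1 to 3. In UBR4 mKO replicate 4 it was 0.0823 TPM. The genotype comparison at 6 months and the interaction of genotype and age are thus not free of this difference. Replicate 3 of the 24-month UBR4 mKO group had the lowest Ubr4 and the lowest level of the Y-linked gene Kdm5d in its group (0.666 TPM), and results were also computed without these 2 samples. Mitochondrial transcripts took up 52.6 to 59.7% of the TPM in 6-month WT muscles and 46.1 to 51.7% in the other groups. Of the 10628 genes tested, 4645 were higher and 122 lower in UBR4 mKO than in WT at 6 months, and the median gene was higher by 0.33 on the log2 scale. With median-of-ratios scaling, which sets the typical gene equal between samples, that split became 708 higher and 1082 lower and the median gene moved to -0.018. Between 24 and 6 months in WT the split was 2555 higher and 114 lower, with a median of 0.26, against 472 and 566 after the same scaling, and in the interaction of genotype and age 13 and 487 against 108 and 103. Changes of single genes are therefore also given after that scaling where the call or direction differs.

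Krt8 and Krt18 lie side by side on chromosome 15 of GRCm38. Krt8 extends from 101996698 to 102004482 on the minus strand and Krt18 from 102028180 to 102032027 on the plus strand, so that they point away from each other with their starts 23.7 kb apart. The promoters of both genes are shown because their RNAs rose in the same muscles, and the motifs are written in capitals. The sequences are from RefSeq (GRCm38.p6) and run from 250 bases before to 50 bases after the RefSeq start site, at chr15:102004293-102004592 on the minus strand for Krt8 and chr15:102027966-102028265 on the plus strand for Krt18.
Krt8: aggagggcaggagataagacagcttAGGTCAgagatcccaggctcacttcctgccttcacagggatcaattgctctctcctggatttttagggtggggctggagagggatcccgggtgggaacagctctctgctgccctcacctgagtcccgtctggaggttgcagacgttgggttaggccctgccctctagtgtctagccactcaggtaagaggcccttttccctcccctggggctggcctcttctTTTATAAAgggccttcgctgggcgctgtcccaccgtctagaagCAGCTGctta
Krt18: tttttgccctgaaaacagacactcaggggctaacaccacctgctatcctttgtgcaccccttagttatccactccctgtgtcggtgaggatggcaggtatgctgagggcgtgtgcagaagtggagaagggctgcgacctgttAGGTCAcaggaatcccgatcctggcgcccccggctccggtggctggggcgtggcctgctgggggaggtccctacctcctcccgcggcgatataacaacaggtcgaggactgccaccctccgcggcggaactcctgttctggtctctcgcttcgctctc
A set of 5 motifs, chosen with these results known, were searched on both strands: the TATA box TATAAA, the GC box GGGCGG, the E-box CAGCTG bound by myogenic factors, the nuclear receptor motif AGGTCA and the AP-1 site TGANTCA. The nuclear receptor motif was the only one of them in both keratin promoters, 225 bases before the start of Krt8 and 108 bases before that of Krt18, and 16.3% of all 32851 promoters held it. Krt8 also held TATAAA on both strands, overlapping at the start site itself, and a CAGCTG after the start. Promoters were given for 7 of the 10 genes, namely Des, Krt8, Krt18, Nes, Sync, Synm and Vim. TATAAA was also in that of Vim and in 13.6% of all promoters, and CAGCTG also in those of Des and Sync and in 16.3% of all promoters. GGGCGG or its complement was in the promoters of Des, Nes and Sync and not in those of Vim, Synm, Krt8 and Krt18, against 35.7% of all promoters. TGANTCA, which 7.81% of all promoters held, was found in 0 of the 7.

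Krt8 RNA was almost absent from young WT muscle. It was listed at 0 in 3 of the 4 6-month WT samples and at 0.0221 TPM in the other one. In 6-month UBR4 mKO muscles Krt8 was 4.88, 3.14, 3.07 and 2.47 TPM. Every mutant sample was thus far above every control, and no fold is given because the controls are at or near 0. With a pseudocount of 0.1 the difference was 5.01 on the log2 scale, and it was 2.10 with a pseudocount of 1 and 7.94 with 0.01. In 24-month muscles Krt8 was 1.65, 1.65, 1.26 and 4.68 TPM in WT and 3.12, 2.66, 15.8 and 5.71 TPM in UBR4 mKO. The old WT samples were all above the young ones, whereas the ranges of the old groups overlapped.

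Krt18, the partner chain, was low but present in young controls. It was 0.0593, 0.235, 0.233 and 0.114 TPM in 6-month WT and 8.99, 5.98, 4.48 and 3.98 TPM in 6-month UBR4 mKO muscles, a ratio of the group means of 36.6. In 24-month WT muscles it reached 13.9, 11.6, 17.2 and 28.7 TPM, a ratio of 111 to the young WT mean. Each of these old WT values was also above each value of the young UBR4 mKO group. In 24-month UBR4 mKO muscles Krt18 was 8.27, 7.39, 44.5 and 11.7 TPM, so that 1 sample lay above all old WT samples while 2 lay below all of them. On the log2(TPM + 0.1) scale the description reads 4.51 for UBR4 mKO against WT at 6 months and 6.09 for 24 against 6 months in WT, and 2.51 and 3.95 with a pseudocount of 1. The plot of keratin levels by sample shows these patterns on that scale.

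**Figure D1:**
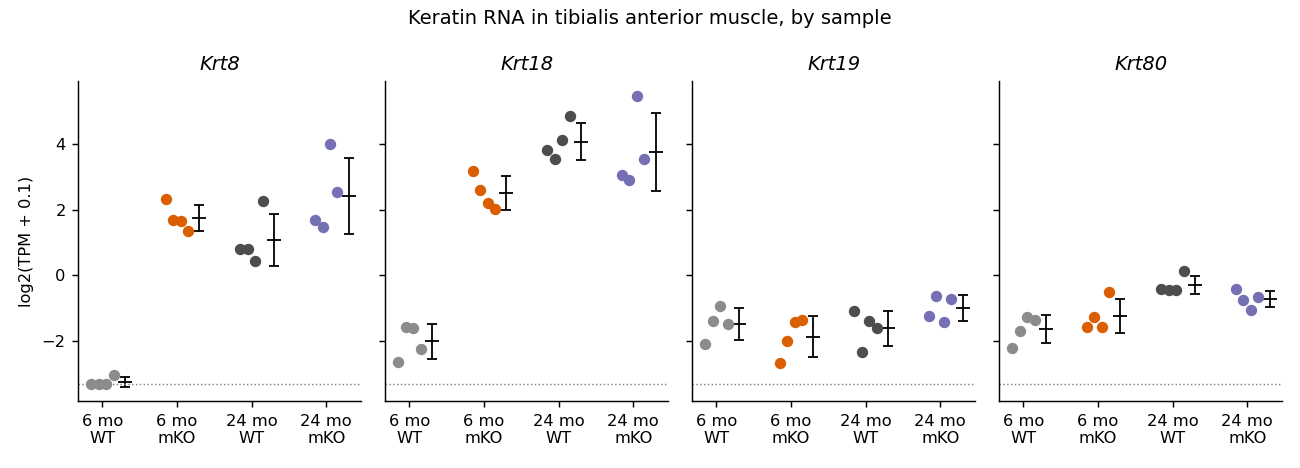
Levels of the 4 keratin genes on the log2(TPM + 0.1) scale in each of 16 muscles (points), with the group mean and SD (horizontal mark and bar) beside them and a TPM of 0 as the dotted line. Krt8 and Krt18 are lowest in 6-month WT muscles (Krt8 at 0 in 3 of 4) and high in the other groups, while Krt19 and Krt80 stay below 1 TPM.

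The genotype comparison at 24 months shares its WT samples with the age-related rise for which Krt8 and Krt18 had been chosen, so it too is given with no test. Between UBR4 mKO and WT the difference in log2(TPM + 0.1) was 1.34 for Krt8 and -0.33 for Krt18. Replicate 3, the 24-month UBR4 mKO sample with the least Ubr4, had the highest level of both keratins. Without it, the differences were 0.82 for Krt8 and -0.90 for Krt18. The change from 6 to 24 months within UBR4 mKO was 0.66 for Krt8 and 1.25 for Krt18, and 0.14 and 0.67 without that sample. The difference between the genotype effects at 24 and at 6 months was -3.67 for Krt8 and -4.84 for Krt18, as a description only. These values depend on the pseudocount and were -1.04 and -2.81 with a pseudocount of 1, and -6.56 for Krt8 with 0.01.

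The proportion of the pair also varied between groups. Since TPM is a level per transcript length, the ratio of Krt18 to Krt8 TPM could be compared within a sample, and a pattern of it was noticed only after the values had been seen, so no test is given. The ratio was 1.84, 1.90, 1.46 and 1.61 in 6-month UBR4 mKO muscles and 8.41, 6.99, 13.7 and 6.14 in 24-month WT muscles. In 24-month UBR4 mKO muscles it was 2.65, 2.78, 2.82 and 2.04. All old WT samples thus had over 6 times as much Krt18 as Krt8 RNA per length, and all UBR4 mKO samples of either age less than 3 times. The geometric means were 1.70, 8.39 and 2.55. At 24 months the mean log2 ratio was -1.67 in UBR4 mKO relative to WT, and it stayed between -1.80 and -1.44 when each of the 8 samples was left out in turn. Replicate 3 of the old UBR4 mKO group, with the highest levels of both RNAs, had a ratio like that of the rest of its group. No ratio is given for 6-month WT muscles, where Krt8 was at 0 in 3 of the 4 samples and near 0 in the other one.

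**Figure D2:**
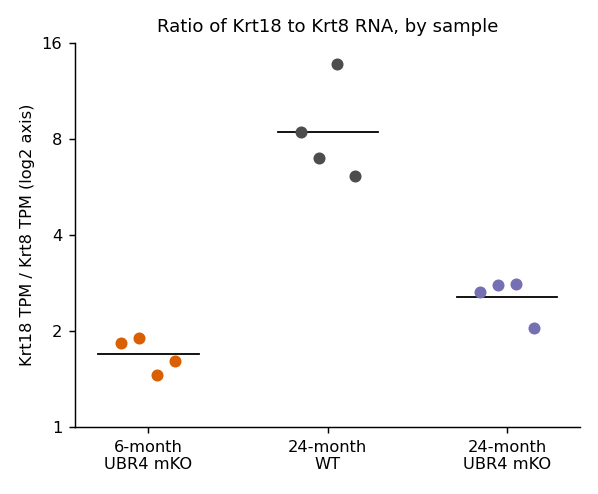
Ratio of Krt18 to Krt8 TPM in each muscle of the 3 groups in which both RNAs were above 0 in every sample (points, log2 axis), with the geometric mean as a line. The 24-month WT samples lie between 6.14 and 13.7, above all UBR4 mKO samples, which lie between 1.46 and 2.82.

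Reads of near-identical copies could be shared with the keratin genes. The pseudogene Krt8-ps is 98.6% identical to Krt8 over 48.1% of the transcript and was listed at 0 in every sample. Gm17847, which is 87.5% identical to Krt18 over 68.5% of its transcript, was also at 0 throughout, and the copies Gm5200 and Gm7943 were not analysed here. The treatment of reads matching several genes was not given in the sources used here.

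Most other keratins were silent in this muscle. Of 51 keratin genes in the table, 26 were at 0 in every sample, and 4 reached 1 TPM in any sample, namely Krt8, Krt18, Krt10 and Krt222. Krt10, a type I keratin of the epidermis, ranged from 0.908 to 1.94 TPM over all samples and was not called in any comparison. Krt222, an atypical keratin-like gene, was 0.702 to 1.48 TPM in 6-month WT, 1.20 to 1.55 TPM in 6-month UBR4 mKO and 0.283 to 0.832 TPM in 24-month muscles. Krt19, the small type I keratin that can replace Krt18 as the partner of Krt8, stayed between 0.0566 and 0.550 TPM in all samples. Its groups overlapped in every comparison, and the smallest p was that of 24 against 6 months in UBR4 mKO, with a log2 difference of 0.87 (exact permutation test, two-sided, p = 0.0571). Krt80, a type II keratin, was 0.117, 0.212, 0.315 and 0.292 TPM in 6-month WT and 0.647, 0.638, 0.639 and 0.994 TPM in 24-month WT muscles, where all old samples were above all young ones. Its log2 difference was 1.33 (two-sided p = 0.0286 by exact permutation, which is the lower limit for 4 against 4 samples, and limma adjusted p = 0.00685 in the fit without a filter). In 24-month UBR4 mKO muscles Krt80 was 0.385 to 0.645 TPM. Both genes were under the mean level of 1 TPM required for the main test, which 8 of the 10 genes passed.

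The neighbors of the pair did not share its pattern. Of the 5 protein-coding genes on each side, those next to Krt8 (Krt77, Krt76, Krt4, Krt79 and Krt78) were at or below 0.0950 TPM in every sample. On the side of Krt18, Soat2 was at most 0.173 TPM, and Eif4b, Tns2, Spryd3 and Igfbp6 were tested. Tns2, which encodes a focal adhesion protein, was higher in UBR4 mKO at 6 months by 0.45 (SE 0.14, limma adjusted p = 0.0185), and Spryd3 by 0.43 (SE 0.12, limma adjusted p = 0.00912), in a comparison that called 44.9% of all genes. Neither was called after median-of-ratios scaling (0.10 and 0.084, limma adjusted p = 0.538 and 0.499). In the other comparisons the limma adjusted p of these 4 genes was 0.0564 or more, and the largest of their log2 differences between 24 and 6 months in WT was 0.38, for Tns2.

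Markers of epithelial cells were low in all groups, but their sum was higher in old muscles. The 10 epithelial markers summed to 0.180 to 0.454 TPM in 6-month WT, 0.239 to 0.365 TPM in 6-month UBR4 mKO, 0.801 to 1.48 TPM in 24-month WT and 0.616 to 0.867 TPM in 24-month UBR4 mKO, and 0 of them passed the filter. The old samples of each genotype were all above the young ones, whereas the young groups overlapped. Krt5, Krt14 and Cldn7 were at 0 in every sample, and the adhesion molecule Epcam had a group mean of at most 0.0178 TPM. The transcription factor gene Elf3 made up most of the sum in old muscles, with means of 0.191 TPM in 6-month WT, 0.153 TPM in 6-month UBR4 mKO, 0.970 TPM in 24-month WT and 0.534 TPM in 24-month UBR4 mKO. The 4 mesothelial markers, with Wt1 and Lrrn4 at 0 throughout, summed to 0.0662 to 0.244 TPM in 6-month WT and to 0.264 to 0.694, 0.170 to 0.345 and 0.347 to 0.921 TPM in the other groups in the same order. These sums were carried by Msln alone, since Upk3b was at most 0.0134 TPM, and 0 of the 4 passed the filter. At either age the UBR4 mKO samples were all above the WT ones, at 24 months only just (0.3465 against 0.345 TPM). Of all genes tested, 39.9% did not overlap in the 6-month and 5.80% in the 24-month comparison. Markers of leukocytes were, like the keratins, lowest in young WT muscles, with a sum of 1.04 to 1.15 TPM in 6-month WT against 3.62 to 16.3 TPM in 6-month UBR4 mKO, 2.52 to 6.00 TPM in 24-month WT and 5.48 to 21.3 TPM in 24-month UBR4 mKO. Krt18 was higher in every 24-month WT than in every 6-month UBR4 mKO muscle, while the leukocyte sums of these groups overlapped. Krt8 overlapped between them as well, with means of 3.39 TPM in 6-month UBR4 mKO, 2.31 TPM in 24-month WT and 6.82 TPM in 24-month UBR4 mKO. The 5 genes of the denervation list, such as the acetylcholine receptor gene Chrna1 and the transcription factor gene Runx1, summed to 16.9 to 23.3 TPM in 6-month WT and to 43.0 to 53.6, 43.3 to 74.0 and 36.3 to 94.4 TPM in the other groups in the same order. Of its 3 tested genes, limma called all 3 higher in UBR4 mKO at 6 months and in WT at 24 months, in comparisons that called 44.9 and 25.1% of all genes. The satellite cell and regeneration list summed to 15.1 to 21.5 TPM in 6-month WT, 27.6 to 38.1 TPM in 6-month UBR4 mKO, 26.7 to 33.4 TPM in 24-month WT and 24.7 to 38.7 TPM in 24-month UBR4 mKO, so that 6-month WT lay below all other groups. Its members differed. Of 4 tested, Myog, Myh3 and Ncam1 were called higher in UBR4 mKO at 6 months, and Myog and Ncam1 with age in WT, against 44.9 and 25.1% of all genes. After median-of-ratios scaling the 3 stayed called at 6 months, and Myog alone with age in WT. Myod1 was called in neither comparison (-0.054 and 0.47). Pax7, below the filter, had means of 0.586, 1.06, 0.486 and 0.420 TPM in the same order of groups. The part of these cells and states in the keratin levels was not tested.

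The genes whose levels over the 16 samples were most like those of Krt18 on the log2 scale were Ces2c (Pearson r = 0.983), Runx1 (r = 0.969), Rrad (r = 0.968), Tubb6 (r = 0.965) and Aif1l (r = 0.962). For Krt8 they were Spg21 (r = 0.972), the small heat shock protein gene Hspb8 (r = 0.970), Prmt2 (r = 0.962), Rab13 (r = 0.961) and Rhoc (r = 0.960). The keratins themselves were at r = 0.931, which put Krt18 at rank 19 among the genes most like Krt8 and Krt8 at rank 20 for Krt18. By ranks of the samples the pair was less alike, with a Spearman rho of 0.646. These values are a description, since the samples share the groups on which the keratins had been chosen. Ces2c, a carboxylesterase gene, had means of 0.122 TPM in 6-month WT, 2.24 TPM in 6-month UBR4 mKO, 8.27 TPM in 24-month WT and 5.32 TPM in 24-month UBR4 mKO. Hspb8 was 152 to 192 TPM in 6-month WT and 370 to 416 TPM in 6-month UBR4 mKO.

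The filament genes of muscle other than Nes were at higher mean levels than the keratins. Their mean over all samples was 1083 TPM for Des, 139 TPM for Synm, 62.9 TPM for Plec, 61.2 TPM for Vim, 25.4 TPM for Sync and 9.77 TPM for Nes, against 10.5 TPM for Krt18 and 3.13 TPM for Krt8. Neighbors in this order whose ranges over the samples overlapped were Plec (40.6 to 77.4 TPM) and Vim (37.1 to 107.5 TPM), and Sync (15.0 to 36.9 TPM) and Nes (5.38 to 15.7 TPM), while Krt18 spanned the range of Nes and beyond (0.0593 to 44.5 TPM). At 6 months, limma called 4 of these 6 genes higher in UBR4 mKO and 0 lower, and the same 4 were those whose groups did not overlap. Among all genes tested 44.9% were called in this comparison and 39.9% did not overlap, so that the count is to be read against a large background. The median of the 6 was 0.68 on the log2 scale and that of all genes 0.33.

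Des, the main filament of the fiber, was 831, 855, 803 and 752 TPM in 6-month WT and 1467, 1282, 1293 and 1364 TPM in 6-month UBR4 mKO muscles. All mutant samples were above all controls. The log2 fold change was 0.74 (SE 0.093, limma adjusted p = 6.57e-05), and after median-of-ratios scaling it was 0.38 (limma adjusted p = 0.0386). Sync, whose protein binds desmin and dystrobrevin, was 16.2, 18.9, 15.7 and 15.0 TPM in WT and 34.1, 31.7, 36.9 and 36.3 TPM in UBR4 mKO. The groups were clearly apart, with a log2 fold change of 1.08 (SE 0.15, limma adjusted p = 0.00016). Nes, which encodes nestin of myogenic progenitors and of the ends and synaptic regions of fibers, was 5.50, 7.08, 7.67 and 5.38 TPM in WT and 15.7, 14.2, 13.7 and 14.8 TPM in UBR4 mKO. It too did not overlap, with a log2 fold change of 1.19 (SE 0.15, limma adjusted p = 7.46e-05). After median-of-ratios scaling, Sync (0.73) and Nes (0.84) were still called.

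Vim, the filament of fibroblasts, endothelial and immune cells and of immature muscle, was 43.5, 52.4, 68.9 and 50.5 TPM in 6-month WT and 107.5, 77.2, 78.4 and 70.1 TPM in 6-month UBR4 mKO muscles. The lowest mutant sample was just above the highest control. The log2 fold change was 0.63 (SE 0.19, limma adjusted p = 0.0163), and the call was lost after median-of-ratios scaling (0.28, limma adjusted p = 0.395). Without WT replicate 1 or without UBR4 mKO replicate 1 it was also lost (limma adjusted p = 0.0524 and 0.0546). The same held after rescaling without mitochondrial genes (0.37, limma adjusted p = 0.255) and with Dunn's test, the rank test of the study's methods (adjusted p = 0.106). Among the cells that hold Vim, the 5 endothelial markers summed to 70.9 to 96.3 TPM in WT and 111 to 120.1 TPM in UBR4 mKO. Of these 5 genes 3 were called higher, with a median of 0.42, where 44.9% of all genes were called and the median gene was at 0.33, and 0 were called after median-of-ratios scaling, with a median of 0.063. The sums of the 5 fibroblast markers overlapped, at 171 to 313 TPM and 222 to 424 TPM. Of these, Pdgfra (1.02 to 1.29 and 1.75 to 2.53 TPM) and Lum (11.3 to 23.2 and 24.4 to 34.1 TPM) did not overlap and were called higher, by 0.83 each (limma adjusted p = 0.00912 and 0.00692). The fibroblast list median was 0.43, which, like the count of 2 called, stands against the same values for all genes, and after median-of-ratios scaling 0 of the 5 were called, with a median of 0.075. Leukocyte markers were higher as given above. The part of these cells in the level of Vim was not tested.

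Synm and Plec, the large linkers, did not pass the test at 6 months. Synm was 132, 152, 125 and 106 TPM in WT and 143, 128, 121 and 161 TPM in UBR4 mKO, a log2 difference of 0.11 (SE 0.17, limma adjusted p = 0.607). Plec was 48.2, 72.4, 68.4 and 40.6 TPM in WT and 59.6, 58.8, 62.0 and 77.4 TPM in UBR4 mKO, a log2 difference of 0.20 (SE 0.19, limma adjusted p = 0.382). The groups of both genes overlapped, and both differences turned negative after median-of-ratios scaling (-0.25 and -0.16). Without the 6-month UBR4 mKO sample that had little Y-linked RNA, together with replicate 3 of the old mutants, the 4 genes named above were still called, with log2 fold changes of 0.73 for Des, 0.71 for Vim, 1.19 for Nes and 1.06 for Sync.

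**Figure D3:**
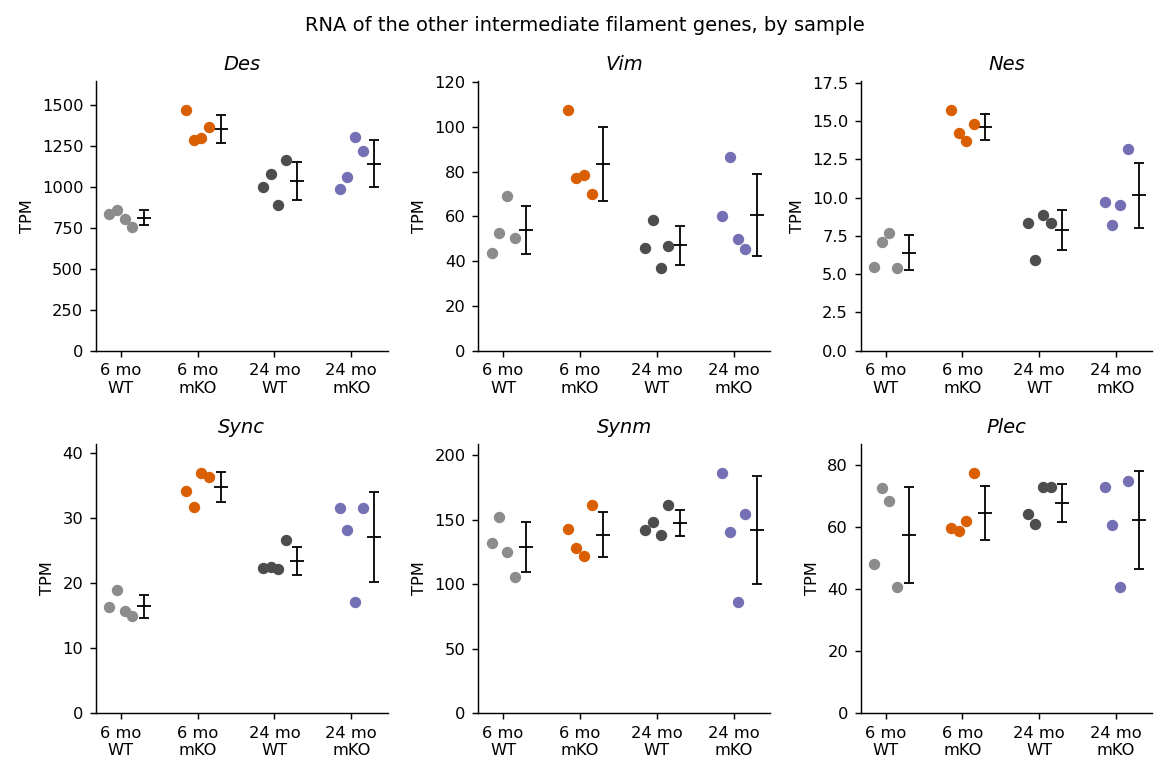
TPM of 6 filament genes in each muscle (points, axes from 0), with the group mean and SD beside them. Des, Nes and Sync are higher in all 6-month UBR4 mKO than in all 6-month WT samples, and replicate 3 of the 24-month UBR4 mKO group has the lowest Sync (17.1 TPM), Synm (86.0 TPM) and Plec (40.6 TPM) of its group.

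At 24 months, limma called 0 of the 6 genes in the comparison of UBR4 mKO with WT, against 0.630% of all genes. Dunn's test called 0 of all genes tested in this comparison and so none of the 6. It ranks all 16 samples together, so groups next to each other in rank differ little even without overlap. Its 0 calls here and in the comparisons with age therefore say little. By limma 1 gene, Nes, had an unadjusted p under 0.05. No gene had groups that did not overlap, whereas 5.80% of all genes did. Des was 1000, 1074, 889 and 1163 TPM in WT and 984, 1059, 1302 and 1215 TPM in UBR4 mKO, a log2 difference of 0.14 (SE 0.093, limma adjusted p = 0.70). Nes was 8.34, 5.93, 8.88 and 8.34 TPM in WT and 9.73, 8.22, 9.52 and 13.2 TPM in UBR4 mKO, a log2 difference of 0.36 (SE 0.15, limma adjusted p = 0.428). Sync was 22.3, 22.4, 22.2 and 26.5 TPM in WT and 31.5, 28.2, 17.1 and 31.5 TPM in UBR4 mKO. Here 3 mutant samples lay above all controls and 1, replicate 3, below them. The log2 difference of Sync was 0.17 (limma adjusted p = 0.831), and without replicate 3 it was 0.38 (limma adjusted p = 0.0963). Vim was 37.1 to 58.2 TPM in WT and 45.5 to 86.7 TPM in UBR4 mKO, a log2 difference of 0.34 (SE 0.19, limma adjusted p = 0.618). Synm (-0.11) and Plec (-0.16) were again not called, and without replicate 3 both differences were positive (0.11 and 0.035).

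In WT muscles 2 of the 6 genes were higher at 24 than at 6 months by limma, in a comparison that called 25.1% of all genes, and their groups were also those that did not overlap, as for 25.9% of all genes. Des rose by 0.34 on the log2 scale (SE 0.093, limma adjusted p = 0.0168), from 752 to 855 TPM in young to 889 to 1163 TPM in old muscles. Sync rose by 0.51 (SE 0.15, limma adjusted p = 0.0266), from 15.0 to 18.9 TPM to 22.2 to 26.5 TPM. Neither was called after median-of-ratios scaling, where Des was at 0.068 and Sync at 0.23 (limma adjusted p = 0.763 and 0.203). With a covariate for Y-linked RNA Des was still called, while Sync had a limma adjusted p of 0.0592. Leaving out replicate 4 of either WT group ended the call of Des (limma adjusted p = 0.0650 and 0.0646), and that of Sync was lost without replicate 1, 3 or 4 of young or replicate 1 or 4 of old WT muscles (between 0.0521 and 0.0901). Nes (0.29), Synm (0.21), Plec (0.27) and Vim (-0.19) were not called, and the median of the 6 genes, 0.28, was close to that of all genes, 0.26.

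Within UBR4 mKO, Nes was lower at 24 than at 6 months, with 13.7 to 15.7 TPM in young and 8.22 to 13.2 TPM in old muscles and no overlap. Its log2 fold change was -0.54 (SE 0.15, limma adjusted p = 0.0457, in a comparison that called 6.29% of all genes). The call was lost in 11 of the 16 fits that left out 1 sample, among them each fit without a young UBR4 mKO sample (limma adjusted p between 0.0513 and 0.148). It was also lost for Nes without a filter (0.0688), with only the groups compared (0.0577), with the replicate block (0.0648), with the Y-linked covariate (0.101), without replicate 4 of the young and replicate 3 of the old UBR4 mKO group together (0.114) and with Dunn's test (adjusted p = 0.555). Sync (-0.40, limma adjusted p = 0.145) did not overlap either, as 12.9% of all genes did not, and Des (-0.25), Vim (-0.48), Synm (-0.011) and Plec (-0.081) were not called. Des passed the threshold without replicate 3 of the old UBR4 mKO group (limma adjusted p = 0.0393) and Vim without its replicate 2 (0.0387). The median of the 6 was -0.33 and that of all genes -0.043. These comparisons with age share their samples with the genotype comparisons, so the values stand side by side and are not independent.

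The effect of genotype differed between the ages for 3 of the 6 genes, in a test that called 4.70% of all genes. Since tamoxifen was given at the same age, old UBR4 mKO mice had lacked Ubr4 for longer than young ones. Age and time since knockout cannot be told apart here or in the comparison of ages within UBR4 mKO. The interaction, which is the effect of UBR4 mKO at 24 months minus that at 6 months, was -0.59 for Des (SE 0.13, limma adjusted p = 0.0193), -0.83 for Nes (SE 0.22, limma adjusted p = 0.0401) and -0.90 for Sync (SE 0.22, limma adjusted p = 0.0278). The median gene was at -0.31 in this test. After median-of-ratios scaling the values were -0.26, -0.51 and -0.57, and 0 of the 3 were called (limma adjusted p = 0.424, 0.183 and 0.0725). Of the 16 fits that left out 1 sample, 1 ended the call of Des (without replicate 4 of young WT, limma adjusted p = 0.0502), 12 that of Nes (up to 0.0913) and 7 that of Sync (up to 0.0696). The call of Nes was also lost with the replicate block (limma adjusted p = 0.0602) and without replicate 4 of the young and replicate 3 of the old UBR4 mKO group together (0.0812). Vim (-0.29), Synm (-0.22) and Plec (-0.35) were not called.

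**Figure D4:**
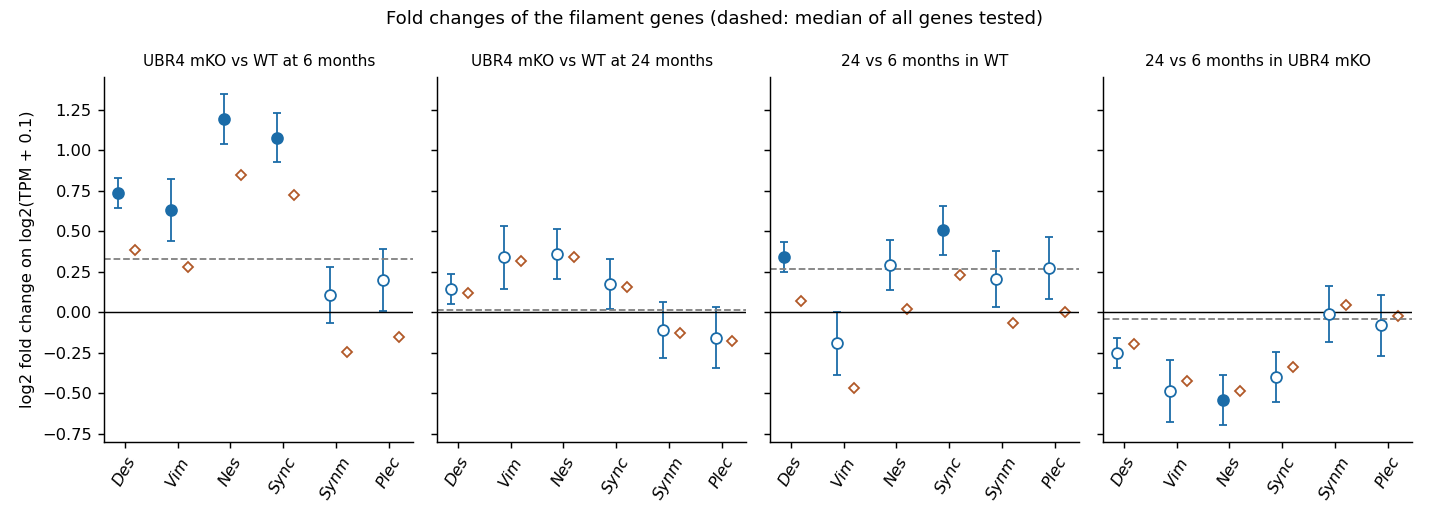
Log2 fold changes (circles with SE, filled where the limma adjusted p was under 0.05) of 6 filament genes in 4 comparisons, the same values after median-of-ratios scaling (diamonds) and the median of all genes tested (dashed line). At 6 months Des, Nes and Sync lie above the median gene with either scaling, while Synm and Plec lie below it.

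The genes most like Des over the 16 samples were Lmna (Pearson r = 0.961), which encodes the lamins A and C of the nuclear envelope, followed by Mrps30 (r = 0.960), Snx32 (r = 0.948), Mt3 (r = 0.947) and Srp14 (r = 0.945). Those most like Vim were Vsir (r = 0.932), the collagen gene Col5a2 (r = 0.926), S100a10 (r = 0.915), Anxa2 (r = 0.910) and Tmsb4x (r = 0.906). Des and Krt8 were at r = 0.852 and Des and Krt18 at 0.681, whereas Vim was at 0.220 with Krt8 and 0.0136 with Krt18.

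Chaperones and linkers of the filaments were taken from lists drawn up with earlier results of these data known. Of the 8 filament chaperones, limma called 6 higher in UBR4 mKO at 6 months and 0 lower, in a comparison that called 44.9% of all genes, with a list median of 0.76 against 0.33 for all genes. They were the small heat shock genes Cryab (0.99, from 462 to 913 TPM), Hspb1 (0.82, from 120 to 212 TPM) and Hspb8 (1.22, from 173 to 400 TPM), the co-chaperone genes Bag3 (0.70) and Dnajb6 (0.47), and Flnc (0.87), a filamin that the chaperone complex clears. Trim32, a ligase of desmin, and Mtm1, a phosphatase that binds desmin, were not called. Cryab, Hspb1, Hspb8, Bag3 and Flnc were also called after median-of-ratios scaling. In old WT muscles Hspb8 (1.07), Hspb1 (0.46) and Dnajb6 (0.44) were called higher than in young ones, against 25.1% of all genes, and of these Hspb8 alone remained after that scaling. At 24 months limma called 0 of the 8 between the genotypes, against 0.630% of all genes, with 2 at an unadjusted p under 0.05 (Cryab and Bag3) and an adjusted p of 0.448 or more. With age in UBR4 mKO Cryab was called lower (-0.55, limma adjusted p = 0.00608), also after scaling, where 6.29% of all genes were called. The interaction, with 4.70% of all genes called and the median gene at -0.31, was called for Hspb8 (-1.12), Cryab (-0.74) and Hspb1 (-0.63), and for Hspb8 alone after scaling.

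Of the 6 costamere genes, 4 were called higher in UBR4 mKO at 6 months, namely Vcl (0.89), Dmd (0.85), Dtna (0.45) and Tln1 (0.37), and Vcl alone after median-of-ratios scaling. With age in WT, Vcl (0.46, limma adjusted p = 0.0421) and Tln1 (0.33, limma adjusted p = 0.0425) were called higher, against 25.1% of all genes, and neither after that scaling. The counts of costamere genes at 6 months and of the next list stand against 44.9% of all genes called. Of the 4 plakin and desmosome genes tested, Pkp2 (0.92), Macf1 (0.85) and Jup (0.61) were called, and Dst (0.21), a plakin of muscle that anchors filaments, was not. After that scaling Pkp2 and Macf1 were still called, while Jup was not (0.26, limma adjusted p = 0.131). Pkp2, the plakophilin of cardiac desmosomes, was also called higher at 24 than at 6 months in WT (1.31), from 0.560 to 1.54 TPM. That call held after the scaling. With age in UBR4 mKO Pkp2 was called higher only after the scaling (0.41 before it, limma adjusted p = 0.1755). Dsp, the desmoplakin gene that anchors keratins at epithelial desmosomes, had a group mean of at most 0.0318 TPM. Of the other filament genes, 4 of 23 were tested and Lmna was called, by 0.79 in UBR4 mKO at 6 months and by 0.48 with age in WT, the former also after scaling. The interaction, with 4.70% of all genes called and a median of -0.31, was called for Vcl (-0.87), Pkp2 (-0.90) and Lmna (-0.70), and for 0 of these after scaling. The neuronal and glial filament genes Gfap, Nefl, Nefm, Nefh and Ina had group means of at most 0.0145 TPM, while those of Prph, which encodes peripherin of peripheral neurons, were 0.320 to 0.589 TPM. Between the genotypes at 24 months limma called 0 genes of these lists, against 0.630% of all genes, and beside Cryab and Bag3 only Krt10 had an unadjusted p under 0.05.

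**Figure D5:**
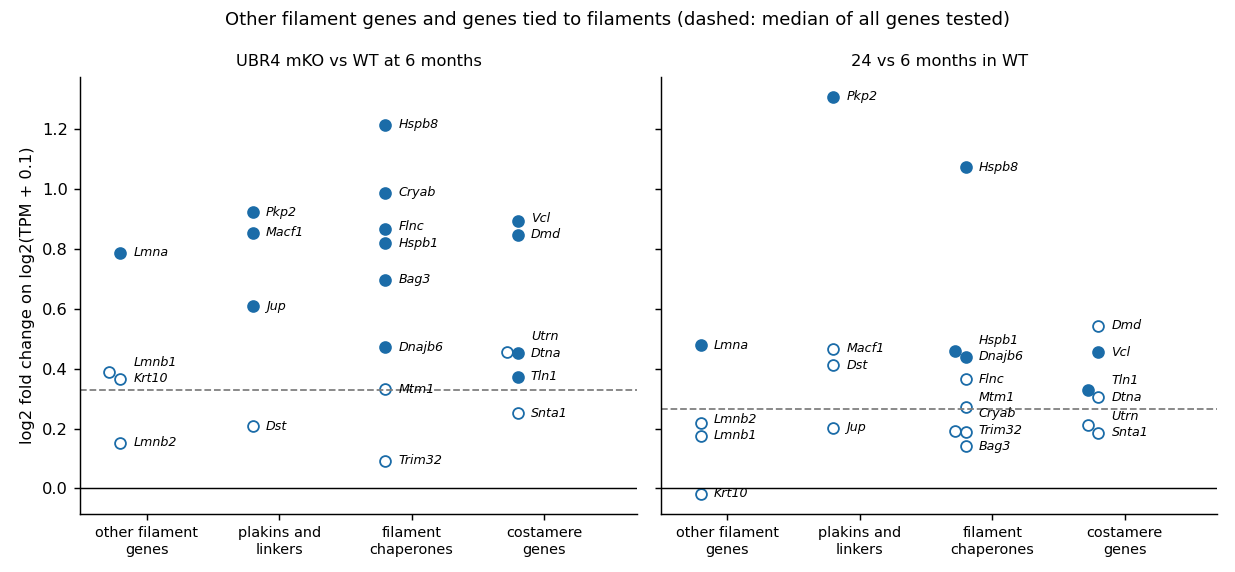
Log2 fold changes of the tested genes of 4 lists (circles, filled where the limma adjusted p was under 0.05; circles close in value are set apart sideways) and the median of all genes tested (dashed line). Hspb8 stands highest among the chaperones in both panels (1.22 and 1.07) and Pkp2 highest in old WT muscle (1.31).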

How the data were processed

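RNA of 16 tibialis anterior muscles, described by the study as individual muscles of independent mice, was sequenced as paired-end reads, which the authors trimmed, filtered for quality and length, aligned to GRCm38 (mm10 in the submitters' processing notes) and quantified with CLC Genomics Workbench. The deposited unit is TPM, and depth, annotation release and use of strand were not given in the sources used here. The sample labels and the methods name different library kits. All columns matched a sample.

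Groups were taken from the sample labels. The log2 of TPM + 0.1 was fitted for the 10628 genes that averaged 1 TPM or more, with limma 3.58.1 in R 4.3.3, 1 coefficient per group, a variance trend and Benjamini-Hochberg adjustment over all genes tested (threshold 0.05). Fold changes on this scale understate the change of low genes. Genes under the filter were compared by exact permutation over 70 assignments, two-sided. Within groups, log2 values correlated across genes at 0.965 to 0.993, and 0 pairs of samples were identical. For UBR4 mKO against WT at 6 months the procedure was tested on simulated data. There 200 of 10628 genes were changed by 1.5 on the log2 scale. The procedure called 96% of these 200, with 3.03% false calls. In the measured data 44.9% of all genes were called, and a case with so many genes changed was not tested.

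The members and all lists were chosen with earlier results of these data known. The genes named are the 10 members, the called genes of the lists, the 5 protein-coding neighbors on each side of the keratin pair (GENCODE vM21), near-identical transcripts found with minimap2 2.31, and the 5 genes most correlated with Krt18, Krt8, Des and Vim, placeholder symbols left out. A few genes outside the rule (Krt10, Krt222, Dsp, Dst, Epcam and other list genes at or near 0) were named after their values were seen. Same-numbered samples deviated together with correlations between -0.155 and 0.181, so replicate numbers did not pair them. Alternatives were other pseudocounts, no filter, median-of-ratios scaling, only the groups compared, a replicate block, Dunn's test and leaving out each sample. Rescaling without mitochondrial genes was among them, and a Y-linked covariate, leaving out both samples that stand apart, the settings of the keratin ratio and other pseudocounts for Krt8 and Krt18 were added after seeing the data. Figures were drawn with matplotlib 3.10.9 in Python 3.11.15.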

Additional observations from a re-analysis of the deposited data

Results flagged for a closer look

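In groups of 4 samples, a value was marked by the share of the group's range that its gap to the nearest sample took up. The cutoff was one that chance passes in about 1 in 20 groups, so some values with a gap of most of the range were not marked. Of 40 such groups 5 were marked, where chance gives about 2. They were Krt8 at 0.0221 TPM in the only 6-month WT sample above 0, Krt8 at 4.68 TPM in replicate 4 of 24-month WT, Krt18 at 44.5 TPM in replicate 3 of 24-month UBR4 mKO, Krt80 at 0.994 TPM in replicate 4 of 24-month WT, and Sync at 26.5 TPM in that same replicate. Replicate 4 thus held the highest Krt8, Krt18, Krt80 and Sync of the old WT muscles. Replicate 3 of the old UBR4 mKO group held the highest Krt8 and Krt18 and the lowest Sync, Synm, Plec and Ubr4 (4.28 TPM) of its group.

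The effect of UBR4 mKO differed between 24 and 6 months by limma's interaction test for Des (-0.59), Nes (-0.83) and Sync (-0.90), and all 3 calls were lost after median-of-ratios scaling, under which the median gene moved from -0.31 to 0.013. The cause of these differences was not tested.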

How the results depend on the processing

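Counts of all genes called depended on scaling. For UBR4 mKO against WT at 6 months the 4767 became 1790 with median-of-ratios scaling, 1586 without mitochondrial genes and 2485 with Dunn's test. At 24 months the 67 became 43 without a filter, 8 with only the groups compared, 38 with the replicate block and 0 with Dunn's test. For age in WT the 2669 became 1038, 1051 and 0 with the scaling, without mitochondrial genes and with Dunn's test, and 4260 without both samples that stand apart. For age in UBR4 mKO the 669 became 1197 with the scaling, 439 with only the groups compared and 0 with Dunn's test. The interaction's 500 became 299 without a filter, 211 with the scaling, 214 without mitochondrial genes and 284 with the replicate block. Leaving out 1 sample gave 2737 to 6239, 8 to 66, 974 to 4973, 374 to 774 and 187 to 2491 calls in the same order, the largest interaction count without 6-month WT replicate 2.

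Of the 6 filament genes, the 4 called at 6 months stayed at 3 or 4 in all settings and the 0 at 24 months at 0. The 2 called for age in WT became 0 with the scaling, without mitochondrial genes and with Dunn's test, and 1 with the Y-linked covariate. The 1 called for age in UBR4 mKO became 0 without a filter, with only the groups compared, the replicate block, Dunn's test, the Y-linked covariate and without both samples. The 3 of the interaction became 1 without a filter, 0 with the scaling and 0 without mitochondrial genes. Leaving out 1 sample gave 3 to 4, 0 to 0, 0 to 2, 0 to 1 and 0 to 3. Replicate numbers did not pair the samples, and the replicate block left the counts at 4, 0, 2, 0 and 2, with the call of Nes lost in both comparisons where the count fell. Without both samples that stand apart the interaction also called 2, Nes being lost.

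Of 768 recomputed values of single genes, 675 kept direction and call, 66 lost the call, 2 gained one and 25 changed sign, all of Synm, Plec or Vim where uncalled. With median-of-ratios scaling these were Synm and Plec at 6 months (-0.25 and -0.16), with age in WT (-0.069 and -0.00063), Synm with age in UBR4 mKO (0.047) and the interactions of Vim (0.040) and Synm (0.12). Without mitochondrial genes Synm was at -0.15 and Plec at -0.057 at 6 months, and Synm at 0.0098 with age in UBR4 mKO. With the Y-linked covariate the last was 0.023 and that of Plec 0.0084. Without both samples Synm and Plec were at 0.11 and 0.035 at 24 months, at 0.29 and 0.20 with age in UBR4 mKO, and the Synm interaction at 0.082. Leaving out 1 sample gave, for Synm and Plec, -0.26 to 0.11 and -0.26 to 0.035 at 24 months, -0.16 to 0.21 and -0.18 to 0.11 with age in UBR4 mKO, and -0.37 to 0.0061 for the Synm interaction. Where no value shows it, the cause was not tested. TPM keeps no depth, so the counting error of Krt8 and Krt18 in young WT muscle is unknown.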
